A study of Mus musculus with 24 samples.

Results

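The question was whether sildenafil changed lung expression differently in mice with Marfan syndrome than in wild-type mice. It is the contrast (Marfan sildenafil minus Marfan vehicle) minus (wild-type sildenafil minus wild-type vehicle), called the interaction here, and it was computed for 19494 genes on all 20 arrays with values, of 24 arrays in the series. No gene passed an adjusted p of 0.05, with or without the array Marfan sildenafil 9, whose profile stood apart. The groups were 6 arrays of wild-type lung after vehicle (arrays 13 to 18), 4 of wild-type lung after sildenafil (1, 4, 5 and 6), 5 of Marfan lung after vehicle (20 to 24) and 5 of Marfan lung after sildenafil (8 to 12). All mice were killed at 6 months of age, and sildenafil had been given in the drinking water from the age of 6 weeks. The labels name neither the Marfan allele nor the sex of the mice, the sildenafil dose or the make-up of the vehicle. They also do not state that each array was a separate animal, so p-values here reflect only variation among these arrays, which may be technical.

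Marfan syndrome is an inherited connective tissue disease in which fibrillin-1 is mutated, the protein that builds the microfibrils that scaffold elastic fibres and hold latent TGF-beta in the matrix. In the lung it is known for widened airspaces. Sildenafil inhibits phosphodiesterase 5, which degrades cyclic GMP, the messenger through which nitric oxide and natriuretic peptides relax vascular smooth muscle, and the drug is in clinical use for pulmonary arterial hypertension.

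A positive interaction means that the sildenafil-minus-vehicle difference was larger, in log2 units, in Marfan than in wild-type lungs. All levels are log2 values after quantile normalization, so 1 unit is a doubling of signal. They are compared for the same gene between arrays and not between genes. Before that normalization the array medians averaged 5.66 ± 0.19 (SD, n = 6) in the wild-type vehicle group, 6.06 ± 0.14 (n = 4) in the wild-type sildenafil group, 6.03 ± 0.13 (n = 5) in the Marfan vehicle group and 6.06 ± 0.28 (n = 5) in the Marfan sildenafil group. Array brightness thus carried an interaction of its own, -0.37 log2 units on 20 arrays and -0.29 on 19, because the wild-type vehicle arrays were the dimmest. Array 9 scored 73.8 on the first principal component, where the other 19 arrays lay between -9.05 and 9.1. Markers of alveolar type 2 cells, a defining lung epithelium, averaged between 11.0 and 11.12 log2 units in the 4 groups when array 9 was left out and 11.28 on array 9. Levels of Y-linked genes were low on 2 of 6, 1 of 4, 2 of 5 and 1 of 5 arrays in the same group order, so both kinds of array occurred in every group.

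On 20 arrays, 0 genes (0%) had an interaction at an adjusted p under 0.05, and the lowest adjusted p was 0.984. At an unadjusted p under 0.05 there were 872 genes (4.47% of those tested), 382 of them positive (1.96%) and 490 negative (2.51%). Without array 9, 0 genes passed the adjusted threshold and the lowest adjusted p was 0.995, while 847 genes (4.34%) had an unadjusted p under 0.05, 413 positive (2.12%) and 434 negative (2.23%). These shares lie below the 5% that the unadjusted threshold itself allows. The same 590 genes had an unadjusted p under 0.05 on both sets of arrays, with the same sign in each, which is 67.7% of the 20-array genes and 69.7% of the 19-array genes.

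The split between positive and negative genes followed the scaling of the arrays. Positive genes made up 43.8% of those at an unadjusted p under 0.05 on 20 arrays and 48.8% on 19 arrays after quantile normalization. With the deposited values they made up 6.79% and 11.5%, and the interaction of the median gene was -0.24 and -0.18. With each array centred on its median they made up 89.2% and 86.1%, and the median gene had 0.13 and 0.10. With the deposited array median as a covariate the shares were 54.5% and 55.8%. The interactions below are from the quantile-normalized values, in which the median gene had -0.003 on 20 arrays and -0.0014 on 19.

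The precision of the estimates is given here for single genes after quantile normalization, without adjustment for the number of genes. The intervals do not include the shift of all genes between scalings given above. The median standard error (SE) of a gene's interaction was 0.24 log2 units with and without array 9. The 95% interval lay within 1 log2 unit on either side of 0 for 88.1% of genes on 20 arrays and 89.9% on 19 arrays. Among the brighter 50% of genes by mean level, 95.2% and 97.9% had such an interval. An interval within 0.5 log2 units was reached by 23.6% and 27.1% of genes, so for most genes an interaction of that size in one direction or the other was not excluded.

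The sildenafil differences within the 2 genotypes rest on separate arrays, though both were tested with the same estimate of each gene's spread. Across the 9747 brighter genes (the upper 50% by mean level), their Pearson correlation was 0.30 on 20 arrays and 0.42 on 19, and over all 19494 genes it was 0.14 and 0.21, as a description across genes, which are not independent replicates and were normalized together. An unadjusted p under 0.05 in both genotypes was seen for 238 of 19494 genes on 20 arrays. Of these, 209 had the same sign and 29 opposite signs. Without array 9 there were 359 such genes, 332 with the same sign and 27 with opposite signs. Of all genes, 43.9% on 20 arrays and 41.8% on 19 had opposite signs. Because the p-values share an estimate of spread, such genes are not agreement of separate tests. The overlap expected by chance was not computed. In neither genotype did a gene pass an adjusted p of 0.05 (0 genes each). At an unadjusted p under 0.05, of 19494 genes, there were 1309 in Marfan and 1774 in wild-type lungs on 20 arrays. On 19 arrays these counts were 1338 and 2175. Among the 847 interaction genes, 91.4% had opposite signs in the 2 genotypes, against 41.8% of all genes, a share that the choice of genes by their interaction raises.

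**Figure D1:**
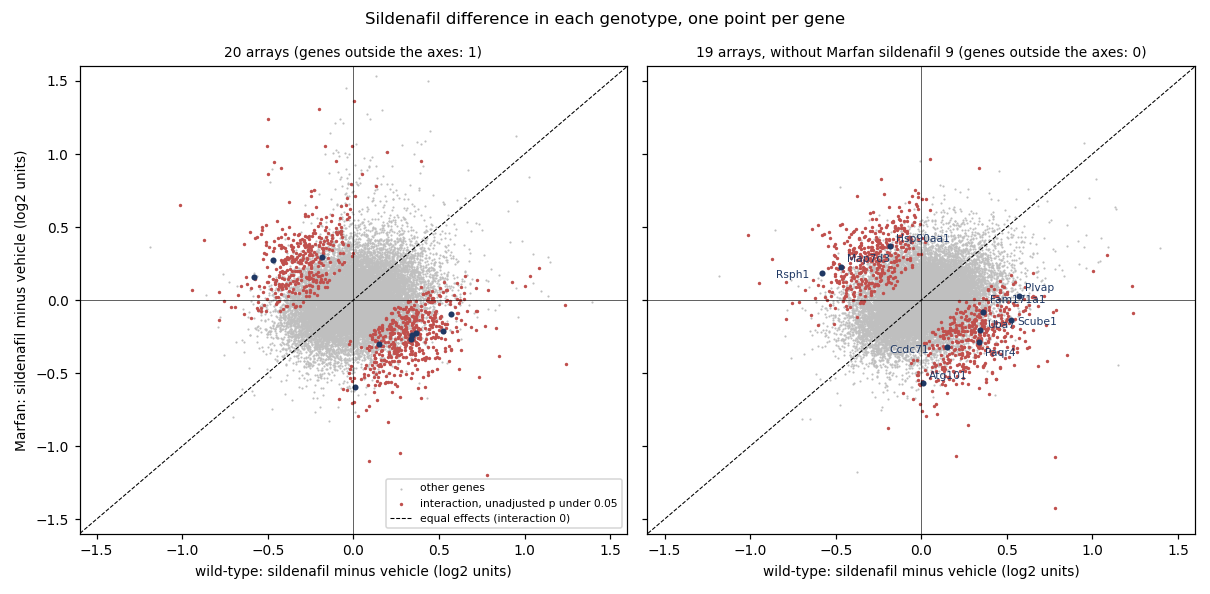
Sildenafil minus vehicle in wild-type lungs (x axis, log2 units) against the same difference in Marfan lungs (y axis, log2 units), one point per gene, for 20 arrays (left) and 19 arrays (right). Red points, and the 10 dark ones named on the right, have an interaction at an unadjusted p under 0.05 (872 and 847 genes in all), and the dashed line marks equal effects. The red points lie on both sides of the line, mostly in the corners where the 2 genotypes have opposite signs.

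Within the brighter 50% of genes, 10 were among the 12 with the smallest unadjusted p in their direction on both 20 and 19 arrays. Rsph1, Map7d3 and Hsp90aa1 were positive, and Scube1, Atg101, Uba7, Paqr4, Ccdc71, Fam171a1 and Plvap were negative. All 10 had an adjusted p of 0.984 on 20 arrays and 0.995 on 19. Their sign did not change under any of the 30 alternatives run on 20 arrays or the 29 run on 19, scalings and the omission of each array included. They were chosen for small p-values on both sets, which share 19 arrays, so a stable sign was largely set by that choice.

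Rsph1 encodes a radial spoke head protein of motile cilia. Its log2 level ran from 6.45 to 6.69 with a median of 6.56 on the wild-type vehicle arrays, and was 5.99, 5.76, 6.02 and 6.20 on the wild-type sildenafil arrays. Marfan vehicle arrays gave 6.00, 6.31, 6.55, 6.56 and 6.06, and Marfan sildenafil arrays gave 6.34, 6.35, 6.62, 6.39 and 6.55. Every wild-type sildenafil array lay below every wild-type vehicle array, while the 2 Marfan groups overlapped. The interaction was 0.74 ± 0.18 (SE) on 20 arrays and 0.76 ± 0.19 on 19. It was made up of a Marfan difference of 0.16 and a wild-type difference of -0.58 on 20 arrays. With the deposited values it was 0.38.

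Map7d3, a microtubule-associated protein, had wild-type vehicle levels from 6.21 to 6.70 with a median of 6.38, and wild-type sildenafil levels of 5.72, 6.10, 5.60 and 6.30. Its Marfan vehicle levels were 6.02, 6.01, 6.29, 6.02 and 5.96, and its Marfan sildenafil levels 6.16, 6.51, 6.54, 6.26 and 6.19. The groups overlapped in both genotypes, through 1 high array in the wild-type sildenafil group (array 6) and 1 in the Marfan vehicle group (array 22). The interaction was 0.74 ± 0.20 on 20 arrays and 0.70 ± 0.21 on 19.

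Hsp90aa1 encodes the inducible form of the cytosolic chaperone Hsp90. It lay between 9.75 and 10.22 (median 10.03) after vehicle in wild-type lungs and at 9.69, 9.85, 9.78 and 10.10 after sildenafil. In Marfan lungs it was 9.72, 9.79, 9.71, 9.79 and 10.06 after vehicle and 10.42, 9.83, 10.00, 10.17 and 10.15 after sildenafil. Without array 9, 1 Marfan vehicle array (24) still overlapped the Marfan sildenafil arrays. The interaction was 0.48 ± 0.16 on 20 arrays and 0.55 ± 0.15 on 19, with a Marfan difference of 0.37 and a wild-type difference of -0.18 on 19 arrays. Hspa4l, a co-chaperone of the Hsp110 family, had 0.44 ± 0.17 and 0.54 ± 0.15. The list of unfolded protein response and heat shock genes, which holds neither, had a median interaction of 0.14 on 20 arrays and 0.08 on 19. At an unadjusted p under 0.05 it had 0 of 20 measured members on 20 arrays and 1 on 19, Edem1, which targets misfolded glycoproteins for degradation (-0.34 ± 0.13 on 19 arrays). Of all genes, 4.47% and 4.34% were at that threshold.

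Atg101 is a subunit of the kinase complex that starts autophagy, and its Marfan sildenafil arrays stood alone. Levels there were 5.80, 5.95, 6.11, 6.16 and 6.18, below all 15 arrays of the other groups. These ran from 6.36 to 6.68 with a median of 6.52 in wild-type lungs after vehicle, were 6.58, 6.58, 6.50 and 6.42 in wild-type lungs after sildenafil, and were 6.75, 6.49, 6.60, 6.52 and 6.81 in Marfan lungs after vehicle. The Marfan difference was -0.59 and the wild-type difference 0.01 on 20 arrays. The interaction was -0.60 ± 0.16 on 20 arrays and -0.58 ± 0.17 on 19. Atg101 was named for its small unadjusted p on these same values, and how many of all genes separated in this way was not counted. Ccdc71 had a similar order of groups, at 7.68, 7.81, 7.86, 7.65 and 7.65 in Marfan lungs after sildenafil against 8.00, 7.93, 8.14, 8.14 and 7.94 in Marfan lungs after vehicle. These 2 Marfan groups did not overlap, and its interaction was -0.45 ± 0.13 on 20 arrays and -0.47 ± 0.14 on 19. In wild-type lungs Ccdc71 lay at 7.66 to 8.02 (median 7.95) after vehicle and at 8.12, 7.95, 8.09 and 8.03 after sildenafil, which overlap.

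Scube1, a secreted and cell-surface protein of endothelium and platelets, had its low values in the wild-type vehicle group. Levels were 6.14 to 6.60 (median 6.26) there, 6.95, 6.83, 6.69 and 6.79 in wild-type lungs after sildenafil, 6.91, 6.67, 6.57, 6.93 and 6.98 in Marfan lungs after vehicle, and 6.83, 6.31, 6.68, 6.33 and 6.86 in Marfan lungs after sildenafil. The wild-type groups did not overlap and the Marfan groups did. The interaction was -0.74 ± 0.19 on 20 arrays and -0.66 ± 0.19 on 19, and it was -0.74 with array brightness as a covariate on both. Paqr4, a membrane receptor family protein, showed wild-type vehicle levels of 7.05 to 7.19 (median 7.10) below its wild-type sildenafil levels of 7.79, 7.30, 7.23 and 7.43. Its Marfan levels were 7.42, 7.41, 7.80, 7.39 and 7.21 after vehicle and 7.40, 7.25, 7.14, 6.89 and 7.19 after sildenafil, which overlap. Its interaction was -0.61 ± 0.17 on 20 arrays and -0.62 ± 0.18 on 19.

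Uba7 encodes the activating enzyme for the ubiquitin-like modifier ISG15. It was 7.32 to 7.81 (median 7.51) in wild-type lungs after vehicle and 7.50, 7.86, 7.97 and 8.14 after sildenafil. Marfan lungs gave 7.90, 7.62, 7.91, 7.91 and 7.88 after vehicle and 7.46, 7.45, 7.75, 7.70 and 7.64 after sildenafil, so the groups overlapped in both genotypes, in Marfan lungs through vehicle array 21. The interaction was -0.59 ± 0.17 on 20 arrays and -0.55 ± 0.17 on 19. Fam171a1 lay at 7.64 to 7.99 (median 7.74) in wild-type lungs after vehicle and at 8.16, 8.06, 8.22 and 8.08 after sildenafil, with no overlap. In Marfan lungs it was 7.85, 7.97, 8.00, 7.89 and 7.96 after vehicle and 7.96, 7.16, 7.66, 8.00 and 7.77 after sildenafil, where array 9 was the lowest. Its interaction was -0.59 ± 0.17 on 20 arrays and -0.45 ± 0.14 on 19.

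**Figure D2:**
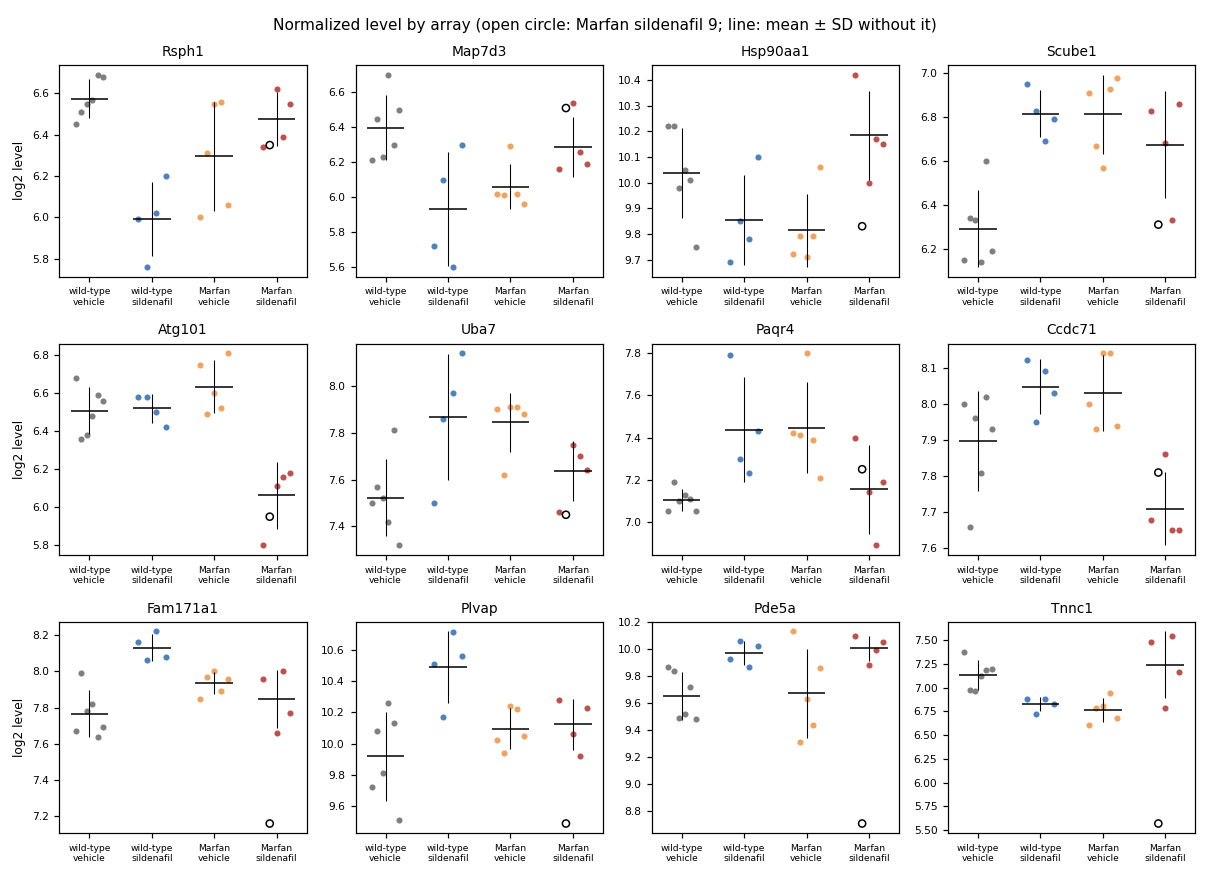
Normalized log2 level (y axis) on each array by group (x axis) for the 10 genes plus Pde5a and Tnnc1. Points are arrays, the open circle is Marfan sildenafil 9, and the lines give the mean and 1 SD without it. The Marfan sildenafil arrays of Atg101 lie below all others, and array 9 is the lowest of its group for Fam171a1, Plvap, Pde5a and Tnnc1, among others.

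In the drug's own pathway no gene was at an unadjusted p under 0.05 after quantile normalization of the 20 or the 19 arrays, though some were under other settings. Pde5a encodes the enzyme that sildenafil inhibits, and its log2 level was 9.48 to 9.87 (median 9.62) in wild-type lungs after vehicle and 9.93, 10.06, 9.87 and 10.02 after sildenafil. In Marfan lungs it was 10.13, 9.31, 9.63, 9.44 and 9.86 after vehicle and 10.10, 8.71, 9.88, 9.99 and 10.05 after sildenafil. Array 9 was thus the lowest of all 20 arrays, and without it the Marfan sildenafil arrays still overlapped the Marfan vehicle arrays through vehicle array 20. The interaction was -0.25 ± 0.27 on 20 arrays, with a 95% interval from -0.81 to 0.32. It was 0.01 ± 0.17 on 19 arrays, with an interval from -0.34 to 0.36, when sildenafil minus vehicle was 0.33 in Marfan and 0.32 in wild-type lungs. The list of cyclic GMP synthesis, receptor, kinase and phosphodiesterase genes had 28 measured members, 0 of them at an unadjusted p under 0.05 on either set of arrays. Of all genes, 4.47% on 20 arrays and 4.34% on 19 were at that threshold. With the deposited values 4 members on 20 arrays and 1 on 19 were negative at that threshold, and with median centring 1 and 2 were positive. On 20 arrays 2 were negative without Marfan sildenafil array 8, 10, 11 or 12, and 1 without wild-type vehicle array 16 or Marfan vehicle array 20. On 19 arrays 1 was negative once array brightness entered as a covariate, or without wild-type vehicle array 18 or Marfan vehicle array 24, and 1 was positive without wild-type sildenafil array 5 or 6, Marfan sildenafil array 11 or Marfan vehicle array 21. Its median interaction was -0.08 on 20 arrays and 0.02 on 19, so its sign turned with array 9. Relative to all genes it also turned on 20 arrays with array brightness as a covariate and with array weights, and on 19 arrays with the deposited values, median centring, cyclic loess and without any 1 of 13 arrays. Among its members after the values were seen, the natriuretic peptide gene Nppa had the largest value, 0.47 ± 0.95 on 20 arrays and 1.25 ± 0.69 on 19. Nppa is also a member of the cardiac muscle list described below.

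Vasoactive genes outside that pathway had a median of -0.14 over 21 measured members on 20 arrays and -0.02 on 19. Ace, the angiotensin-converting enzyme of lung capillaries, was 10.22 to 10.80 (median 10.46) in wild-type lungs after vehicle and 10.82, 10.99, 11.03 and 10.94 after sildenafil, with no overlap. Marfan lungs had 11.00, 10.47, 11.03, 10.88 and 10.85 after vehicle and 10.99, 9.72, 10.77, 10.95 and 10.88 after sildenafil, which overlap. The interaction of Ace was -0.64 ± 0.24 on 20 arrays and -0.41 ± 0.15 on 19. Ece1, which makes active endothelin from its precursor, had -0.44 ± 0.20 and -0.35 ± 0.19, the latter not at an unadjusted p under 0.05.

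Endothelial markers had a negative median on both sets of arrays and under every scaling run. In bulk lung, a change in the number of cells of a type and a change in RNA per cell cannot be told apart. The median interaction of the 21 measured markers was -0.39 on 20 arrays and -0.23 on 19, where the median of all genes was near 0. The list's median sildenafil-minus-vehicle difference was -0.175 in Marfan and 0.21 in wild-type lungs on 20 arrays. Without array 9 it was 0.04 in Marfan and 0.21 in wild-type lungs. At an unadjusted p under 0.05, 7 members were negative on 20 arrays and 5 on 19, and 0 were positive. Beside these, 2.51% and 2.23% of all genes were negative at that threshold. The mean log2 level of the list was 9.20 to 9.47 (median 9.33) in wild-type lungs after vehicle and 9.53, 9.53, 9.54 and 9.54 after sildenafil, with no overlap. It was 9.59, 9.23, 9.44, 9.37 and 9.47 in Marfan lungs after vehicle and 9.45, 8.55, 9.39, 9.41 and 9.52 after sildenafil, which overlap.

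Plvap, which forms the diaphragms of capillary fenestrae and caveolae, had 9.51 to 10.26 (median 9.95) in wild-type lungs after vehicle and 10.51, 10.17, 10.71 and 10.56 after sildenafil. Its Marfan levels were 10.02, 9.94, 10.24, 10.22 and 10.05 after vehicle and 10.28, 9.49, 10.06, 9.92 and 10.23 after sildenafil. Groups overlapped in both genotypes, and the interaction was -0.67 ± 0.21 on 20 arrays and -0.54 ± 0.18 on 19. Eng, the TGF-beta co-receptor endoglin, lay at 10.59 to 11.20 (median 10.92) and at 11.30, 11.30, 11.19 and 11.35 in wild-type lungs after vehicle and sildenafil. Its Marfan levels were 11.41, 10.88, 11.10, 11.03 and 11.04 after vehicle and 11.05, 9.59, 10.92, 10.98 and 11.22 after sildenafil, and its interaction was -0.74 ± 0.28 on 20 arrays and -0.45 ± 0.15 on 19. Sox18, a transcription factor of endothelium, had -0.62 ± 0.21 and -0.45 ± 0.15. Chosen after the values were seen, Vwf, the von Willebrand factor of endothelium and platelets, had -0.79 ± 0.26 and -0.62 ± 0.23.

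The count of 5 endothelial members on 19 arrays became 9 when wild-type vehicle array 17 or Marfan vehicle array 21 was also left out, and 0 with each array centred on its median. With array brightness as a covariate the count on 20 arrays was 3 in place of 7, and the list's median was -0.21 relative to all genes. Mmrn2, an extracellular matrix protein of endothelium that is no member of the list, had -0.75 ± 0.23 on 20 arrays and -0.64 ± 0.22 on 19. Alveolar type 1 markers, of the epithelium that lies against the capillaries, had a median of -0.16 on 20 arrays and -0.03 on 19, with 1 negative member of 13 at an unadjusted p under 0.05 on each, Igfbp2. Of all genes, 2.51% and 2.23% were negative at that threshold.

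Elastic fibre and latent TGF-beta binding genes, the matrix to which fibrillin-1 belongs, had a negative median under every scaling run. Over 21 measured members the median interaction was -0.22 on 20 arrays and -0.15 on 19, and 17 and 18 members had a negative interaction. The median interaction of all genes was -0.003 and -0.0014, and members of a list measured on the same arrays are not independent. Within each genotype the list's median sildenafil-minus-vehicle difference was positive. It was 0.12 in Marfan and 0.25 in wild-type lungs, on 20 and on 19 arrays alike. At an unadjusted p under 0.05 there were 4 negative members on 20 arrays and 3 on 19, and 0 positive ones, where 2.51% and 2.23% of all genes were negative. Fbln5, which links elastin to microfibrils, was 9.32 to 9.68 (median 9.56) in wild-type lungs after vehicle and 9.86, 9.76, 9.95 and 9.85 after sildenafil, with no overlap. In Marfan lungs it was 9.84, 9.47, 9.72, 9.76 and 9.85 after vehicle and 9.83, 8.50, 9.58, 9.63 and 9.67 after sildenafil, which overlap. Its interaction was -0.61 ± 0.23 on 20 arrays and -0.37 ± 0.13 on 19.

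Ltbp3, which binds latent TGF-beta, had -0.53 ± 0.22 on 20 arrays and -0.59 ± 0.22 on 19, from a wild-type difference of 0.50 and Marfan differences of -0.03 and -0.09. Mfap2, a microfibril-associated glycoprotein, had -0.59 ± 0.25 and -0.37 ± 0.18, and here the Marfan difference carried the value, at -0.54 and -0.33. Elastin itself (Eln), named after its value was seen, had 0.02 on 20 arrays and 0.05 on 19. The 4 negative members on 20 arrays became 2 without wild-type sildenafil array 6, Marfan vehicle array 22 or wild-type vehicle array 18, 1 without Marfan vehicle array 20, and 0 with median centring or with array brightness as a covariate. The 3 on 19 arrays became 1 with median centring, which also gave 1 positive member on each set. Collagens and other matrix genes of fibrosis had a median of -0.09 on 20 arrays and -0.08 on 19, with 1 negative member of 27 on 20 arrays (Col6a2, a chain of collagen VI) and 0 on 19 at an unadjusted p under 0.05. Of all genes, 2.51% and 2.23% were negative at that threshold.

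In TGF-beta signalling, 24 measured genes had a median of -0.14 on 20 arrays and -0.10 on 19. Beside the counts here, 4.47% and 4.34% of all genes were at an unadjusted p under 0.05. Besides Eng, 1 member was at an unadjusted p under 0.05, Inhba, the beta A subunit of activins and inhibins, which was positive at 1.36 ± 0.63 and 0.69 ± 0.32. Its Marfan sildenafil levels were 4.82, 7.96, 4.51, 4.67 and 4.46 against 3.35, 4.57, 3.70, 4.08 and 3.91 after vehicle. Array 9 was far above all others, and without it vehicle array 21 still overlapped the sildenafil arrays. In wild-type lungs it was 3.85 to 4.76 (median 4.24) after vehicle and 4.05, 4.75, 3.84 and 4.61 after sildenafil. Genes of BMP signalling in lung vessels had a median of -0.12 and -0.05 over 20 members, with 1 at an unadjusted p under 0.05, the BMP antagonist Grem1 (1.05 ± 0.47 and 0.60 ± 0.29). Array 9 had the highest level of Grem1, 5.87, where the other Marfan sildenafil arrays had 3.16, 3.44, 3.60 and 4.00.

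Ciliated cell genes had the largest positive median of the 37 lists without array 9, 0.41 over 14 measured members, against 0.25 with it. At an unadjusted p under 0.05, 2 members were positive on 20 arrays and 7 on 19, and 0 were negative, where 1.96% and 2.12% of all genes were positive. The list's mean level was 7.54 to 7.95 (median 7.83) in wild-type lungs after vehicle and 7.46, 7.48, 7.69 and 7.72 after sildenafil, which overlap. In Marfan lungs it was 7.60, 7.72, 7.72, 7.83 and 7.54 after vehicle and 7.82, 7.07, 7.86, 8.00 and 7.80 after sildenafil. Without array 9, which was the lowest of all arrays, only vehicle array 23 reached the Marfan sildenafil range.

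Of the 7 members, Rsph1 is described above. Ccdc39, a ruler protein of the ciliary axoneme, had 0.37 ± 0.29 on 20 arrays and 0.62 ± 0.21 on 19, and Tppp3, a tubulin-binding protein abundant in ciliated cells, had 0.21 ± 0.20 and 0.40 ± 0.13. Named after their values were seen, Rsph4a, Hydin, Spag6l and Ccdc153 had between 0.45 and 0.58 on 19 arrays. Spef2 and Cfap206, further genes of cilia and flagella that the list does not hold, had 0.59 ± 0.25 and 0.47 ± 0.21 on 20 arrays and 0.76 ± 0.21 and 0.61 ± 0.17 on 19. Ift140, a component of intraflagellar transport, had the opposite sign at -0.56 ± 0.17 and -0.55 ± 0.18. With the deposited values 0 ciliated members were at an unadjusted p under 0.05 on either set of arrays, and with array brightness as a covariate there were 6 and 8. Relative to all genes the list's median was positive in each of these fits, between 0.16 and 0.49, though with the deposited values on 20 arrays it was -0.07 before the shift of all genes was taken off. On 20 arrays the count of 2 became 1 without wild-type sildenafil array 1, 4 or 6, Marfan vehicle array 21 or 24, wild-type vehicle array 18, or Marfan sildenafil array 11 or 12.

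The promoters of the ciliated genes were searched for core letters of the X-box, the motif of the RFX transcription factors of cilia genes. The sequences are from RefSeq (build GRCm38.p6) and cover 250 bases before to 50 after the gene's start. They were searched for GTTGCC and GTTGCT on both strands, and matches may overlap. Of the 14 measured ciliated genes 11 have an entry, and 9 of the 11 hold a match in at least 1 entry, as do 27.9% of the 27025 genes of the table and 25.1% of its 32851 promoters. A match is a description of letters and not a binding site. The list was chosen as genes of ciliated cells, so its share of matches does not bear on the interaction. Members at an unadjusted p under 0.05 were not compared with the others. The 4 members at an unadjusted p under 0.05 on 19 arrays that have an entry are shown as the table gives them, with matches in capitals: Ccdc39 at chr3:33844261-33844560 on the minus strand, Ccdc153 at chr9:44240427-44240726 on the plus strand, Spag6l at chr16:16829314-16829613 on the minus strand and Hydin at chr8:110266727-110267026 on the plus strand.
Ccdc39: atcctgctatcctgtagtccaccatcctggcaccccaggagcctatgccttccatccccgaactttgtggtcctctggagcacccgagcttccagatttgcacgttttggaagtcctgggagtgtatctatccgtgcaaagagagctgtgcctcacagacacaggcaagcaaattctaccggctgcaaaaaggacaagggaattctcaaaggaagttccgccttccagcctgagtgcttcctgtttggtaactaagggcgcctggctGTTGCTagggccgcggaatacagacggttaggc
Ccdc153: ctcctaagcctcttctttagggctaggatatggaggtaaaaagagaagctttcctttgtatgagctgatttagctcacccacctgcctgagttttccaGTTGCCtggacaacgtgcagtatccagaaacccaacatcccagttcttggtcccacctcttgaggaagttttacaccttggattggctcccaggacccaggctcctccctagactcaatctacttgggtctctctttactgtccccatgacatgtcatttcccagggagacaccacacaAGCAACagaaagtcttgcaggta
Spag6l: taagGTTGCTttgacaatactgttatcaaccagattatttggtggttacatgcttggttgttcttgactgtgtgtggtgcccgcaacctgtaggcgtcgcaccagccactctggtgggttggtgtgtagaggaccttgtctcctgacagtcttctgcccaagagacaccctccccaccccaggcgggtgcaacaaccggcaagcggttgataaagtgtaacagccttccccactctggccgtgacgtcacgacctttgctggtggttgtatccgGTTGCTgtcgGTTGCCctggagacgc
Hydin: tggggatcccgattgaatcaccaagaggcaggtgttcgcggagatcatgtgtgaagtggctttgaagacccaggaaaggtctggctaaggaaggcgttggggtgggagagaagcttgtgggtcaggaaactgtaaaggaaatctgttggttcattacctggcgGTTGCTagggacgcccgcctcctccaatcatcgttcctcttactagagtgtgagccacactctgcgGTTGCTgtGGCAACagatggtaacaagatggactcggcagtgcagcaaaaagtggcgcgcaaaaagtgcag

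Among secretory airway genes, club and goblet cell markers had a median of 0.33 over 14 measured members on 20 arrays and 0.31 on 19. Both of the members at an unadjusted p under 0.05 were positive on each set, where 1.96% and 2.12% of all genes were positive. Scgb3a1, a secretoglobin of airway epithelium, had 1.28 ± 0.50 and 1.16 ± 0.48, with wild-type levels of 9.74 to 11.23 (median 10.80) after vehicle and 9.37, 8.41, 10.82 and 10.61 after sildenafil. Marfan lungs had 10.60, 10.67, 9.50, 10.44 and 9.60 after vehicle and 10.58, 11.08, 10.52, 10.77 and 9.91 after sildenafil, so the groups overlapped in both genotypes, and wild-type sildenafil arrays 4 and 1 were the lowest of all 20. Ltf, the antimicrobial protein lactoferrin, which is also a neutrophil marker, had 1.36 ± 0.53 and 0.85 ± 0.34. Without wild-type sildenafil array 4 the list's median was 0.10 on 20 arrays and 0.11 on 19. Its count of 2 on 19 arrays ran from 0 without wild-type sildenafil array 1 to 4 when array 5 or 6 of that group or wild-type vehicle array 17 was left out. It was 1 without array 4, Marfan sildenafil array 11 or Marfan vehicle array 22, and also with the deposited values, and on 20 arrays it was 1 without array 4.

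Cardiac muscle genes, which mouse lungs contain in the walls of the pulmonary veins, depended on array 9. Their median was -0.02 over 14 members on 20 arrays and 0.40 on 19, with 0 and 4 positive members at an unadjusted p under 0.05, against 1.96% and 2.12% of all genes. The mean level of the list on array 9 was 5.07, against 7.28, 7.28, 7.68 and 7.15 on the other Marfan sildenafil arrays and 7.06, 6.96, 7.00, 7.27 and 6.90 on the Marfan vehicle arrays. Without array 9 the Marfan groups overlapped only through vehicle array 23. Wild-type lungs had 7.06 to 7.55 (median 7.33) after vehicle and 7.11, 6.94, 7.47 and 7.28 after sildenafil.

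Actc1, cardiac alpha-actin, had 0.19 ± 0.44 on 20 arrays and 0.67 ± 0.19 on 19, and Tnnt2, cardiac troponin T, had -0.28 ± 0.59 and 0.40 ± 0.17. Tnnc1, the troponin C of heart and slow muscle, which the list does not hold, had the third smallest unadjusted p of all genes on 19 arrays. It lay at 6.96 to 7.37 (median 7.15) in wild-type lungs after vehicle and at 6.88, 6.72, 6.88 and 6.83 after sildenafil, with no overlap. In Marfan lungs it was 6.61, 6.78, 6.81, 6.94 and 6.68 after vehicle and 7.48, 5.57, 6.78, 7.54 and 7.16 after sildenafil. Its interaction was 0.45 ± 0.33 on 20 arrays and 0.78 ± 0.19 on 19. The count of 4 cardiac members on 19 arrays was 1 without wild-type sildenafil array 1, Marfan sildenafil array 11 or wild-type vehicle array 13, 2 without wild-type sildenafil array 4, wild-type vehicle array 16 or 18 or Marfan vehicle array 24 or without the variance trend, and 0 with the deposited values. On 20 arrays the list's median relative to all genes was 0.47 with array brightness as a covariate and 0.29 with array weights. How much vein muscle each lung piece held was not tested.

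**Figure D3:**
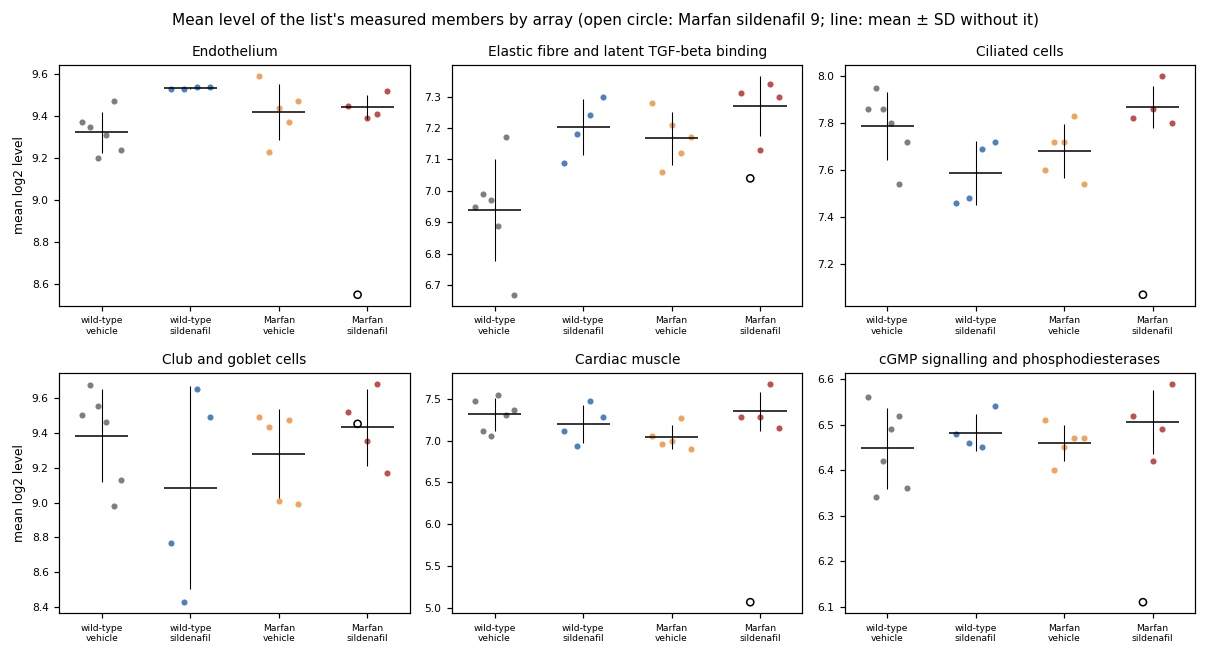
Mean log2 level of the measured members of 6 lists (y axis) on each array by group (x axis). Points are arrays, the open circle is Marfan sildenafil 9, and the lines give the mean and 1 SD without it. Array 9 is the lowest of all arrays for endothelial (8.55), ciliated (7.07), cardiac (5.07) and cyclic GMP genes.

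The macrophage, cytokine and lysosomal lists had higher medians with array 9 than without it, while T and NK cells (-0.18 with it and -0.08 without) and B and plasma cells (-0.15 and -0.12) had lower ones. Alternatively activated and lipid-laden macrophage genes had 0.57 on 20 arrays and 0.13 on 19, alveolar macrophage genes 0.28 and 0.02, and cytokine and NF-kappaB genes 0.22 and -0.03. Their mean levels on array 9 were 10.29, 9.21 and 7.33, against means of 7.84, 8.00 and 5.98 on the other 4 Marfan sildenafil arrays. Cathepsins and lysosomal hydrolases had 0.19 and -0.01, and the 2 members at an unadjusted p under 0.05, Ctsf (-0.55 ± 0.21 and -0.60 ± 0.21) and Sgsh (-0.49 ± 0.20 and -0.46 ± 0.20), were negative on both sets. Ctsf is a lysosomal cysteine protease and Sgsh degrades heparan sulfate. The list had 20 measured members, and 2.51% and 2.23% of all genes were negative at that threshold. Cxcl13, a chemokine that attracts B cells, was positive at 0.83 ± 0.27 and 0.71 ± 0.26.

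Matrix proteases and their inhibitors had a median of 0.13 on 20 arrays and 0.04 on 19. Mmp7, the epithelial protease matrilysin, is among the dimmer 50% of genes and had 1.74 ± 0.83 and 0.81 ± 0.34. Its Marfan levels ran from 2.61 to 2.97 after vehicle and from 2.39 to 7.76 after sildenafil (median 2.90), highest on array 9. Mmp3, of the brighter genes, had 0.38 ± 0.23 and 0.48 ± 0.22. Mmp9, a gelatinase of neutrophils and macrophages, had -0.59 ± 0.28 and -0.52 ± 0.27. Mmp3 was at an unadjusted p under 0.05 only on 19 arrays and Mmp9 only on 20. On 20 arrays 61 genes had an interaction beyond 1 log2 unit, 43 positive and 18 negative, and 26 did on 19 arrays, 13 in each direction, of which 20 were the same genes. Leaving out array 9 moved 129 genes by more than 0.5 log2 units, 114 of them from higher to lower values and 15 from lower to higher.

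**Figure D4:**
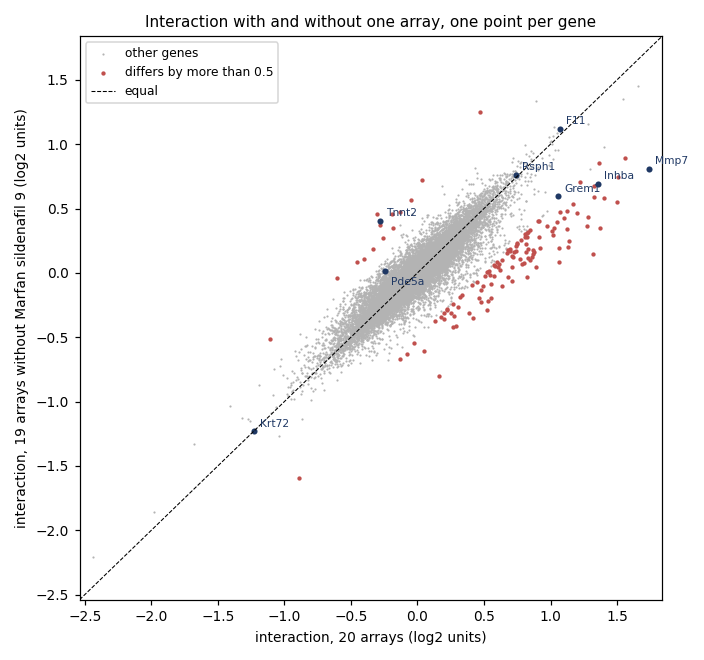
Interaction on 20 arrays (x axis, log2 units) against 19 arrays without Marfan sildenafil 9 (y axis, log2 units), one point per gene, with the dashed line at equal values. Red points, and some of the dark named ones, are the 129 genes that differ by more than 0.5 log2 units, 114 of them below the line, while Rsph1, F11 and Krt72 lie close to it.

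Erythroid genes were represented by 3 measured members of 10. Alas2, the first enzyme of heme synthesis in red cell precursors, had -1.19 ± 0.41 on 20 arrays and -0.87 ± 0.31 on 19. Its Marfan levels were 9.83, 9.27, 10.08, 9.92 and 10.22 after vehicle and 8.93, 7.48, 9.43, 8.96 and 9.00 after sildenafil, which overlap through vehicle array 21 and sildenafil array 10. In wild-type lungs it was 9.08 to 10.43 (median 9.89) after vehicle and 9.84, 10.53, 9.64 and 9.60 after sildenafil. The blood left in each lung was not tested.

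Circadian clock genes had medians of -0.15 and -0.20 over 18 members. Nr1d1, a repressor of the clock, was negative at -0.75 ± 0.29 and -0.64 ± 0.27, and Npas2, an activator whose gene Nr1d1 represses, was positive at 1.06 ± 0.49 and 0.96 ± 0.48. Nfil3, a repressor of clock output genes, had 0.63 ± 0.29 and 0.44 ± 0.26. The SD of Npas2 within a group ran from 0.47 to 0.78. On 20 arrays 2 members, Npas2 and Nfil3, were positive and 1, Nr1d1, was negative at an unadjusted p under 0.05, against 4.47% of all genes. On 19 arrays only Nr1d1 of the list was at that threshold, against 4.34% of all genes. Oxidative phosphorylation genes had a median of 0.12 on 20 arrays and 0.06 on 19, and cytosolic ribosomal protein genes had 0.03 and 0.01, with 0 of 31 and 0 of 21 members at an unadjusted p under 0.05 on either set. Of all genes, 4.47% and 4.34% were at that threshold. In both lists the 2 genotypes had differences of one sign, with list medians of -0.14 in Marfan and -0.22 in wild-type lungs for oxidative phosphorylation and -0.17 and -0.20 for ribosomal proteins on 19 arrays.

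**Figure D5:**
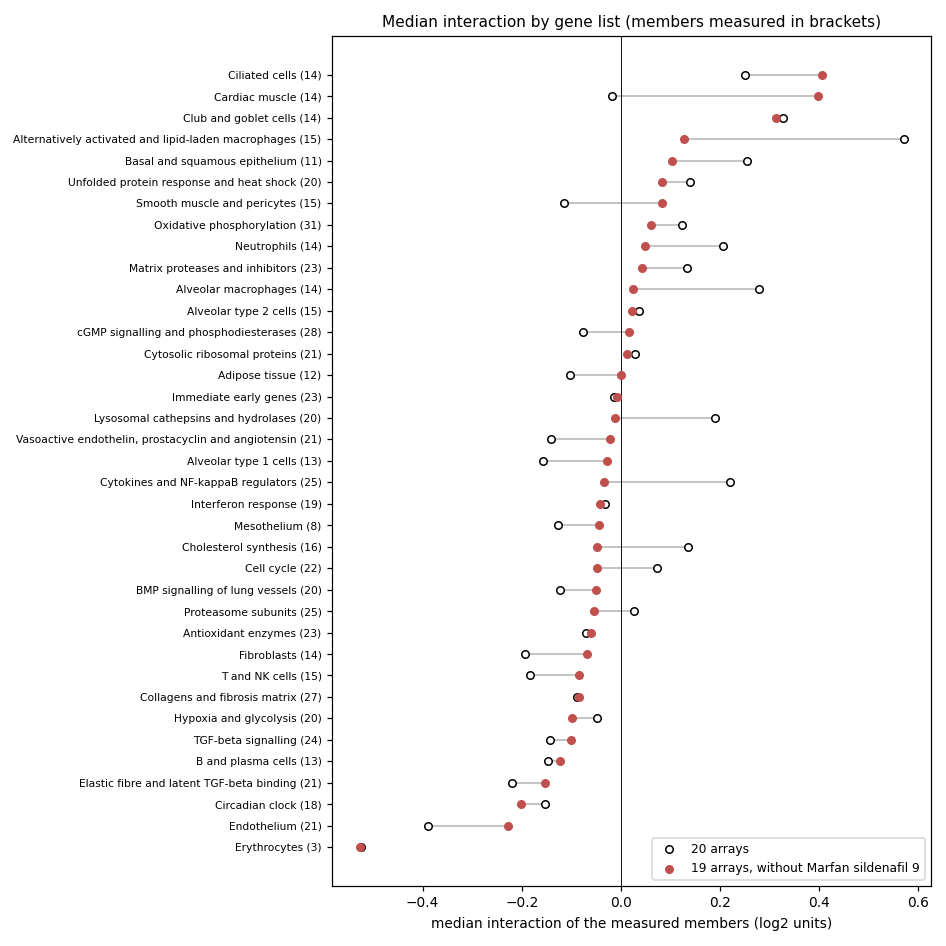
Median interaction (x axis, log2 units) of the measured members of each of the 37 lists (y axis, with the number measured), on 20 arrays (open) and on 19 arrays without Marfan sildenafil 9 (red). Without array 9 the ciliated list is highest at 0.41 and the erythroid list, with 3 members, is lowest at -0.53, followed by the endothelial list at -0.23.

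The gene with the smallest unadjusted p on both sets of arrays was a dim one. Krt72, a keratin of the hair root sheath, lay at 2.89 to 3.50 (median 3.16) in wild-type lungs after vehicle and at 4.17, 4.33, 3.61 and 3.85 after sildenafil, and in Marfan lungs at 3.73, 3.62, 3.66, 4.26 and 3.28 after vehicle and 3.46, 3.29, 3.32, 3.30 and 3.27 after sildenafil. The wild-type groups did not overlap, and the interaction was -1.23 ± 0.25 on 20 arrays and -1.23 ± 0.27 on 19. F11, coagulation factor XI, had wild-type levels of 3.54 to 4.55 (median 4.02) after vehicle and 3.81, 3.30, 3.42 and 3.24 after sildenafil, which overlap through array 1. Its Marfan sildenafil levels of 3.75, 3.56, 3.93, 3.82 and 3.63 lay above its Marfan vehicle levels of 3.09, 3.29, 3.26, 3.39 and 3.34. The interaction of F11 was 1.07 ± 0.25 on 20 arrays, from a Marfan difference of 0.47 and a wild-type difference of -0.60, and 1.12 ± 0.26 on 19. Of the dimmer 50% of genes, 5.09% had an unadjusted p under 0.05 on 20 arrays and 4.76% on 19, against 3.86% and 3.93% of the brighter genes, and the median SE was 0.28 against 0.19 and 0.18.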

How the data were processed

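Lung RNA with an integrity number above 8.5 was labelled from 700 pg per sample for Affymetrix arrays, per the labels' protocols. The authors deposited log2 values, made with Affymetrix Expression Console and RMA (background correction, normalization and probe-set summary) per the submitters' processing notes; their versions are not given in the sources used. Of 29129 table entries, 22142 were transcript probe sets, 19527 with 1 gene symbol, 2615 with none and 0 with several. The 4 columns of arrays titled as failed held no values and stayed out. The remaining 20 arrays were quantile-normalized, since their deposited medians differed, and 1 probe set (the highest mean) was kept for each of 19494 genes.

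Groups came from the sample titles. A mean per group was fitted with limma 3.58.1 in R 4.3.3 (lmFit, eBayes with a variance trend, 16 residual degrees of freedom, or 15 without Marfan sildenafil 9, normalized again). Per-array levels are from the normalization of all 20 arrays. Tests were two-sided, with Benjamini-Hochberg adjustment over all genes and a threshold of 0.05. The code was tested on simulated data. The number of arrays limits the precision. Replicate numbers are not shared between groups.

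The members, the 37 gene lists and the settings were chosen with earlier results of these data known. Lists are described by counts and medians, without a test. Overlap between groups is described for named genes and lists only, and the share of all genes without overlap was not counted. Genes were named by a rule: the 12 brighter genes per direction with the smallest p on 20 and on 19 arrays, 3 dim genes per direction, up to 3 members per list at an unadjusted p under 0.05, and Pde5a, skipping predicted genes, chemosensory receptors, small RNAs and antigen receptor segments. Alternatives were other scalings, array brightness or Y-linked genes as a covariate, array weights, brighter genes only, all probe sets, other variance models and leaving out each array.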

Additional observations from a re-analysis of the deposited data

Results flagged for a closer look

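Of 488 sets of levels within a group of 4 to 6 arrays that were checked (37 lists, the 84 named genes and the array medians, in each group), 52 had an array whose gap to its nearest neighbour was a large part of the group's range, by Dixon's test. Chance alone flags about 1 in 20 such sets, but the sets share arrays and genes, so that rate is no yardstick here. Some of the named genes were chosen for a small p in the fit without Marfan sildenafil 9. That choice favours genes in which this array stands apart, so their flags for it were partly set in advance. The values in brackets are the gap over the range.

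In 34 of the 52, the array was Marfan sildenafil 9. Among the lists it was low for endothelial genes (0.87, at 8.55 against 9.39), cardiac muscle (0.80, 5.07 against 7.15), alveolar type 1 cells (0.84), ciliated cells (0.79), fibroblasts (0.86) and BMP signalling (0.77). It was high for cytokines (0.96, 7.33 against 6.02), hypoxia and glycolysis (0.89), lysosomal hydrolases (0.88), alternatively activated macrophages (0.84, 10.29 against 8.09), basal and squamous epithelium (0.78), matrix proteases (0.75) and alveolar macrophages (0.74). Among single genes it was low for Pde5a (0.84, 8.71 against 9.88), the cardiac genes Tnnt2 (0.86), Actc1 (0.81) and Casq2 (0.81), the cilia genes Spef2 (0.85), Ccdc39 (0.80) and Cfap206 (0.75), the vessel and matrix genes Ace (0.82), Eng (0.82) and Fbln5 (0.81), Scrn3 (0.76) and Alas2 (0.74). It was high for Inhba (0.90, 7.96 against 4.82), Edem1 (0.90), Hmox1 (0.89), Sema4d (0.89), Egr2 (0.84), Perp (0.82), Csf1 (0.81), Ltbp3 (0.75) and Ltf (0.72). In the same group, array 8 was high for Krt72 (0.73).

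In the Marfan vehicle group, array 21 was high for alternatively activated macrophages (0.81) and cytokines (0.75) and low for Uba7 (0.89). Array 22 was high for Map7d3 (0.81) and low for Xkrx (0.88) and Sema4d (0.71), array 24 was high for Hsp90aa1 (0.78), array 23 was low for hypoxia and glycolysis (0.71), and array 20 had a low deposited median (0.80, 5.80 against 6.07). In the wild-type sildenafil group, array 4 was low for Rpap3 (0.99), Mfap2 (0.98) and adipose genes (0.84), and array 5 for immediate early genes (0.87) and Rgs5 (0.84). In the wild-type vehicle group, array 17 was low for T and NK cell genes (0.65) and high for Ctsf (0.64), and array 16 was low for Ranbp3 (0.65). The causes were not tested.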

How the results depend on the processing

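No setting run gave a gene at an adjusted p under 0.05 with limma (0 in each, also without each array in turn), and the lowest adjusted p in any was 0.1833, on 20 arrays without Marfan vehicle array 22. Positive and negative genes at an unadjusted p under 0.05 numbered 118 and 1620 on 20 arrays and 127 and 979 on 19 with the deposited values, and 1458 and 177, and 1096 and 177, with median centring. Restricting the fit to the brighter 50% of genes gave 156 and 229, and 191 and 195, since fewer genes were tested. Leaving out each array in turn gave 323 to 468 positive and 418 to 613 negative genes on 20 arrays, and 353 to 529 and 362 to 599 on 19.

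Signs turned on 20 arrays for Actc1 (-0.06234) and Casq2 (-0.01358) with the deposited values, Csf1 (0.03768) and Apoe (0.01996) with median centring, and Tnnt2 (0.4531, 0.2575) and Pde5a (0.009171, 0.003427) with array brightness as a covariate and with array weights. With each array left out, Egr2 ran from -0.5791 to 0.06891, Tnnt2 from -0.5379 to 0.4039, Pde5a from -0.3361 to 0.0128 and Actc1 from -0.0066 to 0.6717. On 19 arrays Pde5a had -0.18 with the deposited values, -0.009016 with cyclic loess and -0.07701 to 0.1275 over the arrays left out. Of the 84 named genes no other changed sign. The causes were not tested. With 4 to 6 arrays a group, the 95% interval of most genes reached past 0.5 log2 units on at least 1 side of 0.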
